A study of Mus musculus with 15 samples.

Results

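Dnase1 encodes DNase I, a secreted endonuclease of the kidney, and was followed across the 15 whole-kidney libraries of a mouse RNA-seq series. It is 1 of 26823 named genes in the deposited count tables (ENSMUSG00000005980, found by its symbol in 1 row) and was selected on its measured levels in these same libraries. Its own levels are therefore a description and carry no p-value. The WT mice were given PBS. The Hyp mice (Hyp-Duk in the design text) carry the genotype label Phex_KO and were also given PBS. The cFGF23-Hyp mice carry the same label and received AAV-cFGF23, an adeno-associated virus coding for cFGF23, by intravenous injection at 4 weeks of age. All mice were killed at 4 months of age, 3 months after the injection, with 5 libraries per group. Phex is a peptidase whose loss raises the phosphate-wasting hormone FGF23, and cFGF23 is the carboxy-terminal part of that hormone.

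DNase I cuts double-stranded DNA outside cells in the presence of calcium and magnesium ions, and in mice it clears DNA from dying cells in plasma, urine and tissue. Monomeric actin binds the enzyme and blocks it. The kidney, where tubule cells make the enzyme, is among its main sources beside the pancreas and the salivary glands, and mice without it can develop lupus-like kidney disease on some genetic backgrounds.

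Total counts ran from 13083190 to 21829906 per library. Phex had 0 to 3 counts in every library, so its level does not check the genotype labels. Counts of the Y-linked genes Ddx3y, Eif2s3y and Kdm5d were 183 to 1444 in every library and those of Xist at most 9. Markers of proximal tubule (9 of 9 matched) summed to 29445 to 53018 CPM (counts scaled to a common library total after TMM normalisation) over the 15 libraries. The title of WT_5 puts that library in WT, where it was kept, although its genotype label reads Phex_KO and its cell type label Hyp. cFGF23-Hyp_3 lay apart on the first principal component (-76.1, against -11.9 to 17.1 in the other 14), with the lowest mitochondrial share (6.63%). In cFGF23-Hyp_5, Ces1g, a carboxylesterase, was at 2.01 CPM, a level of the WT libraries, against 13.3 to 22.9 CPM in the other 4 of its group. Ces1g in WT_5 was at 9.59 CPM, against 1.07 to 2.01 CPM in the other WT libraries. Ttr, transthyretin, was at 463 CPM in WT_5 (44.3 to 79.4 in the others of its group) and 55.5 CPM in cFGF23-Hyp_5 (695 to 1263). Whether WT_5 and cFGF23-Hyp_5 were exchanged was not tested. The estimates for Dnase1, its marker correlations and the calls that change are given with and without WT_5, cFGF23-Hyp_3 and cFGF23-Hyp_5.

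The deposited tables place Dnase1 on chromosome 16 at 3854806 to 3857888, plus strand. Its 3083 counted bases cover that whole span, introns included, since 5 of the 11 Dnase1 transcripts in the GENCODE annotation retain an intron. The first 906 bases overlap Gm15879, a long noncoding RNA on the other strand, and the last 54 overlap Trap1, also on the other strand. Of 3637 stretches of 50 bases in the Dnase1 transcripts, 455 (12.5%) also occur in Gm15879 and 5 (0.137%) in Trap1, read on the other strand, and no other gene shared any. Whether the counting used strand is not given in the sources used here, so reads of the shared parts cannot be assigned with certainty. Gm15879 had 1359 counts in all 15 libraries together, against at least 6812 for Dnase1 in each single library.

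The promoter is shown because Dnase1 and Ftcd, the gene whose level followed it most closely (below), differed together between the groups. RefSeq places a pair of Dnase1 start sites close to each other, and the window of the upstream one is printed, 250 bases before to 50 after the start site, followed by the window of Ftcd. Capitals mark matches to the 6-letter motifs GTTAAT, part of the HNF1 element, and AGAACA, part of the androgen and glucocorticoid receptor element, on either strand.
Dnase1, chr16:4036786-4037085, GRCm38.p6, plus strand: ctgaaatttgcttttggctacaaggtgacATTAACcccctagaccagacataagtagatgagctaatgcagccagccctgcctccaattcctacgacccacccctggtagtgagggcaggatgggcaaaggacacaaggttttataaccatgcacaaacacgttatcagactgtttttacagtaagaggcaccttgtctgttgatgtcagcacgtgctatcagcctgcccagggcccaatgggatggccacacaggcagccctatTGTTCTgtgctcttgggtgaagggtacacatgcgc
Ftcd, chr10:76575398-76575697, GRCm38.p6, plus strand: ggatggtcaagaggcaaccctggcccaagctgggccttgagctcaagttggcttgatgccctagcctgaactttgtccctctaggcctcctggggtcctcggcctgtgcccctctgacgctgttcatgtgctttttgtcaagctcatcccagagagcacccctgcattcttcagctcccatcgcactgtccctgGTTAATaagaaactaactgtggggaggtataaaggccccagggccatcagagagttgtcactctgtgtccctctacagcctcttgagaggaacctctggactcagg

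GTTAAT begins 221 bases before the upstream Dnase1 start site, as ATTAAC, and 56 bases before the Ftcd start site. It is in 1 of the 2 Dnase1 windows, not in the downstream one, and in 7.1% of all 32851 RefSeq windows of this length. Of the 10 genes most similar to Dnase1 (below), 8 have a window, and 2 of these 8, Fat2 and Ftcd, hold it. AGAACA, as TGTTCT, starts at base 16 of the transcript from the upstream start site and 94 bases before the downstream one, and 19.0% of all windows hold it. Among the 8 similar genes, 2 hold it, Tfam and Tspan3, and Ftcd does not. None of CCGGAAGT (the ETS factor element, 3.89% of windows), its core GGAAGT (23.8%), CAAAGTCCA (HNF4, 0.475%) or TGACGTCA (CREB, 1.79%) is in either Dnase1 window. The full-length HNF1 and receptor elements, each in 0.00913% of windows, are in neither. These matches are letters in a window and were not tied to binding.

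Dnase1 stood lowest in the Hyp kidneys. In WT_1 to WT_5 it was at 1721, 2020, 1712, 2192 and 1258 CPM. In Hyp_1 to Hyp_5 the values were 464, 615, 617, 619 and 611 CPM. In cFGF23-Hyp_1 to cFGF23-Hyp_5 they were 763, 896, 1736, 922 and 2010 CPM. All 5 Hyp libraries lay below all 10 others, the Hyp values were the closest together, and cFGF23-Hyp split into 3 libraries just above Hyp and 2 within the WT range.

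**Figure D1:**
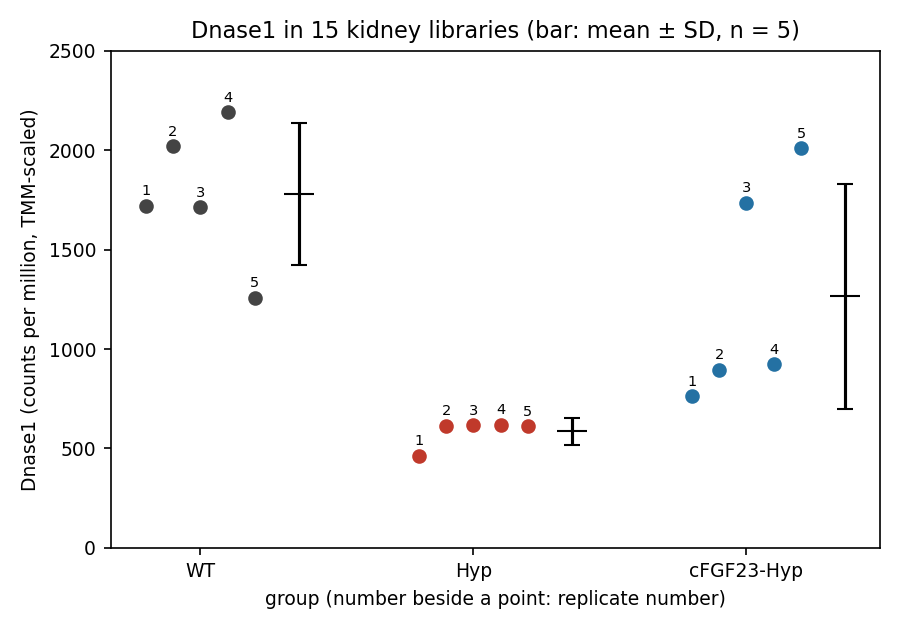
Dnase1 level (CPM, linear axis from 0) in each of 15 kidney libraries by group, with replicate numbers beside the points; crosses with bars are the mean ± SD of 5 libraries. The Hyp libraries lie between 464 and 619 CPM, below every WT and cFGF23-Hyp library, and cFGF23-Hyp_3 and cFGF23-Hyp_5 lie at 1736 and 2010 CPM.

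Means were 1780 ± 356 CPM in WT, 1265 ± 566 CPM in cFGF23-Hyp and 585 ± 67.7 CPM in Hyp (SD, n = 5 each). The order of the means is therefore WT, cFGF23-Hyp, Hyp. Over all libraries, the ranges of the neighbours WT and cFGF23-Hyp overlapped, and their difference was not tested. Without WT_5 and cFGF23-Hyp_5 the estimate of that difference was -0.82 ± 0.21 (log2, ± SE), against -0.49 ± 0.23 with all libraries. The coefficient of variation was 20.0% in WT, 11.6% in Hyp and 44.7% in cFGF23-Hyp. Raw counts of 6812 to 45125 stand behind these values, so counting error is small beside the spread between libraries. On the log2 scale the estimate for Hyp against WT was -1.61 ± 0.24, for cFGF23-Hyp against Hyp 1.11 ± 0.24 and for cFGF23-Hyp against WT -0.49 ± 0.23 (± SE, edgeR fit over 15 libraries, no test). The authors' deposited tables list log2 fold changes of -1.61 and 1.11 for the first and second. These comparisons share libraries and do not stand as separate evidence.

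As background to these estimates, which chose the gene, 54 of 15789 tested genes (0.342%) passed an adjusted p below 0.05 in Hyp against WT by edgeR's quasi-likelihood test, 28 higher (0.177%) and 26 lower (0.165%), while 2110 (13.4%) had an unadjusted p below 0.05. None passed in cFGF23-Hyp against Hyp (0.0%), where 1647 (10.4%) had an unadjusted p below 0.05, DESeq2 called 116 and limma-voom 2. In cFGF23-Hyp against WT none passed either (0.0%), with 905 (5.73%) at an unadjusted p below 0.05, 6 called by DESeq2 and 0 by limma-voom. All Hyp libraries lay below all others in 54 tested genes (0.342%) and above all others in 52 (0.329%), which is no result about Dnase1, since the pattern chose it. Hyp lay below all WT libraries in 448 genes (2.84%) and below all cFGF23-Hyp libraries in 138 (0.874%). Among the 54, the gap between the highest Hyp library and the lowest other library was 0.30 (log2 CPM) for Dnase1, second to 0.61 for Bmerb1.

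The size of the middle comparison rested on few libraries. Without WT_5, cFGF23-Hyp_3 and cFGF23-Hyp_5, left out after their values were seen, Dnase1 spanned 1712 to 2192 CPM in WT, 464 to 619 in Hyp and 763 to 922 in cFGF23-Hyp, and no groups overlapped. The estimates were then -1.71 for Hyp against WT, 0.56 ± 0.11 for cFGF23-Hyp against Hyp and -1.15 ± 0.12 for cFGF23-Hyp against WT. Without only WT_5 and cFGF23-Hyp_5 they were -1.71, 0.88 and -0.82, and with WT_5 moved to Hyp, following its genotype label, -1.45, 0.86 and -0.59. The direction was the same in each of the 25 alternatives, with ranges of -1.71 to -1.45, 0.56 to 1.25 and -1.15 to -0.36. Libraries that stood apart were the ones left out, so the smaller errors of that fit and the lack of overlap are no sign of stability.

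Per kilobase of counted length, Dnase1 was among the most abundant kidney transcripts. It reached 408 to 711 CPM per kb in WT (places 54 to 77 from the top of all named genes), 151 to 201 CPM per kb in Hyp (places 172 to 267) and 248 to 652 CPM per kb in cFGF23-Hyp (places 49 to 133). Since the counted length includes introns, a level per kilobase of the spliced transcript would be higher.

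Among the DNA-cutting enzymes, the abundance of Dnase1 had no near neighbour. In WT kidneys it averaged 577 ± 116 CPM per kb, against 22.0 ± 0.49 for Pld3, a lysosomal exonuclease, and 21.3 ± 0.61 for Endog, the mitochondrial endonuclease G (SD, n = 5 each). The relatives Dnase1l1 and Dnase1l2 were far lower, at 4.02 ± 0.27 and 1.04 ± 0.24 CPM per kb in WT. Dnase2a, the lysosomal acid DNase of engulfed DNA, was at 1.78 ± 0.24 CPM per kb in WT. Dnase1l3, which digests DNA in microparticles, peaked at 1.03 CPM over the 15 libraries and was under the filter, as was Fen1 at 0.798 CPM. Dnase2b, Trex1, Trex2 and Trex3 were not analysed here.

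Of 24 listed nuclease genes other than Dnase1, 18 were tested and none passed in any comparison (edgeR, adjusted p 0.135 or more in Hyp against WT, where the background is 0.342%). An unadjusted p below 0.05 was found for 3 of the 18 in Hyp against WT (13.4% of all tested genes), 2 in cFGF23-Hyp against Hyp (10.4% of all) and 3 in cFGF23-Hyp against WT (5.73% of all). DESeq2 called 1, Plscr1, in Hyp against WT (beside 356 of all 15789 genes) and limma-voom none. The adjusted p of 0.135 is also that of Plscr1, a phospholipid scramblase. Dffa, also listed, is the inhibitor of the nuclease Dffb, so not every listed gene codes for a DNA-cutting enzyme. The list's median log2 difference in Hyp against WT was 0.04, with a range of -0.31 to 0.42, and that of all tested genes was 0.00. In cFGF23-Hyp against Hyp its median was -0.01 (all genes 0.01) and its range -0.34 to 0.36.

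Dnase1l1, a membrane-bound relative, was at 7.98 to 9.37 CPM in WT, 9.75 to 11.3 in Hyp and 8.35 to 14.8 in cFGF23-Hyp. Each Hyp library lay above each WT library, opposite to Dnase1, and the difference of 0.30 ± 0.13 (log2) did not pass (adjusted p = 0.338). The share of all genes with this separation was not counted, while 2.84% had all Hyp below all WT libraries. Dnase1l2 was at 1.57 to 2.91 CPM in WT and 1.33 to 2.70 in Hyp, overlapping (-0.14 ± 0.29, adjusted p = 0.865). Dnase2a was at 8.16 to 11.6 CPM in WT and 11.1 to 12.9 in Hyp, with only WT_5 inside the Hyp range (0.31 ± 0.18, adjusted p = 0.454). Without WT_5, cFGF23-Hyp_3 and cFGF23-Hyp_5 Dnase2a passed, at 0.39 ± 0.10 (adjusted p = 0.024). Endog and Endod1, the latter an endonuclease-domain protein, gave -0.22 ± 0.15 and 0.40 ± 0.17 (adjusted p = 0.566 and 0.317). In that 12-library fit, 3 of the 18 listed genes passed in Hyp against WT, beside 1527 of all genes (9.43%). Dnase2a and the scramblase Plscr1 were higher and Tatdn1 lower. Samhd1, a dNTP hydrolase, passed as higher in cFGF23-Hyp against WT both there (3.6% of all genes called) and without only WT_5 and cFGF23-Hyp_5 (1.11%).

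**Figure D2:**
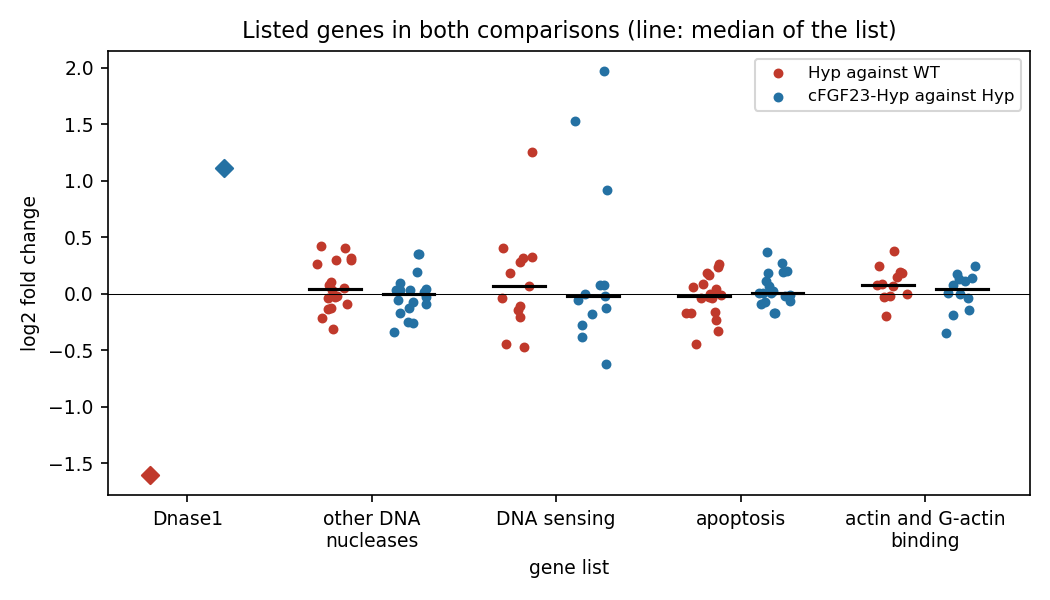
Log2 fold changes of Dnase1 (diamonds) and of the tested members of 4 gene lists (dots, black lines: list medians) in Hyp against WT (red) and cFGF23-Hyp against Hyp (blue). Dnase1 lies at -1.61 and 1.11, outside the range of the other genes of the nuclease list (-0.31 to 0.42 and -0.34 to 0.36). None of the dots passed an adjusted p below 0.05, beside 0.342% and 0.0% of all tested genes.

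The genes that sense DNA or carry the resulting signal also held no call among 13 tested of 14 (Tlr9, the endosomal DNA receptor, stayed under the filter at up to 0.887 CPM). Of all tested genes, edgeR called 0.342% in Hyp against WT and 0.0% in either comparison of the treated mice. A count of 0 is therefore no result about this list. Unadjusted p-values below 0.05 numbered 3 in Hyp against WT, 5 in the treated against the untreated Hyp mice and 4 in the treated Hyp against the WT mice, beside 13.4%, 10.4% and 5.73% of all tested genes. Aim2, the cytosolic DNA receptor of an inflammasome, came closest. It was at 0.340 to 0.813 CPM in WT, 1.09 to 1.51 in Hyp and 0.464 to 1.11 in cFGF23-Hyp. WT and Hyp did not overlap, and the share of all genes with Hyp above WT in this way was not counted. The difference of Aim2 in Hyp against WT was 1.26 ± 0.29 (adjusted p = 0.070), and over the alternatives its adjusted p ran from 0.0086 to 0.189. DESeq2 (adjusted p = 0.015) and limma-voom (0.050, just under the threshold) called it, beside 356 and 76 of all 15789 genes. So did edgeR without WT_5 (adjusted p = 0.037), without cFGF23-Hyp_3 (0.041) or without cFGF23-Hyp_5 (0.044). These edgeR fits called 160 of 15943, 345 of 16004 and 109 of 16019 genes.

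The interferon-inducible nucleic acid sensors Ifi204, Ifi203 and Zbp1 were higher in most treated libraries than in Hyp, without passing the test. Ifi204 was at 0.680 to 4.23 CPM in WT (the highest in WT_5), 1.09 to 1.98 in Hyp and 1.78 to 6.51 in cFGF23-Hyp (the lowest in cFGF23-Hyp_5). In cFGF23-Hyp against Hyp the differences were 1.53 ± 0.40 for Ifi204, 0.92 ± 0.28 for Ifi203 and 1.97 ± 0.65 for Zbp1 (adjusted p = 0.231, 0.283 and 0.313), none past the threshold. DESeq2 called Ifi204 (adjusted p = 0.029), beside 116 of all 15789 genes. Without WT_5 and cFGF23-Hyp_5 all 3 passed, at 1.72 ± 0.29, 1.08 ± 0.19 and 2.23 ± 0.35 (adjusted p = 0.014, 0.019 and 0.0079), beside 67 of all genes (0.421%). Against WT in the same fit they passed at 1.70 ± 0.31, 1.16 ± 0.20 and 3.01 ± 0.41 (adjusted p = 0.015, 0.011 and 0.0013), beside 177 of all genes (1.11%), and so did Unc93b1, the chaperone of nucleic acid receptors. With all libraries the estimates against WT were 1.09 ± 0.38, 0.72 ± 0.27 and 1.5 ± 0.62, below those against Hyp for each gene, whereas without these libraries the order turned for Ifi203 and Zbp1. In single treated libraries, cFGF23-Hyp_3 held a high level of both Dnase1 (1736 CPM) and Ifi204 (5.31 CPM), whereas cFGF23-Hyp_5 held 2010 CPM of Dnase1 and 1.78 CPM of Ifi204.

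Genes of apoptosis, which leaves the DNA that DNase I digests, held no call among 18 tested. The shares called over all tested genes were 0.342%, 0.0% and 0.0% in the 3 comparisons, so this count is no result about the list. Cycs, cytochrome c, was at 279 to 341 CPM in WT, 240 to 267 in Hyp and 228 to 373 in cFGF23-Hyp. Its Hyp values lay below all its WT values, as in 2.84% of tested genes, and the difference of -0.33 ± 0.11 did not pass (adjusted p = 0.203). It passed in the edgeR fit of only WT and Hyp libraries (-0.32 ± 0.06, adjusted p = 0.020), which called 516 of 15479 genes. Bcl2, which holds cells from apoptosis, Aifm1, a mitochondrial flavoprotein released in cell death, and Apaf1, the apoptosome scaffold, gave 0.26 ± 0.10, -0.17 ± 0.06 and -0.44 ± 0.18 in Hyp against WT (adjusted p = 0.259, 0.268 and 0.294). The median over the list was -0.02 in Hyp against WT and 0.01 in cFGF23-Hyp against Hyp. An unadjusted p below 0.05 was found for 4, 1 and 1 of the 18 in the 3 comparisons (13.4%, 10.4% and 5.73% of all tested genes), and neither DESeq2 nor limma-voom called any.

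Actin and its monomer-binding proteins, the source of the natural inhibitor of DNase I, gave the same count of 0 among 12 tested, by edgeR, DESeq2 and limma-voom. By edgeR, 0.342%, 0.0% and 0.0% of all tested genes were called, so this count is likewise no result about the list. Unadjusted p-values below 0.05 numbered 1, 0 and 1, beside 13.4%, 10.4% and 5.73% of all tested genes. Cap1, which recycles actin monomers, was at 136 to 145 CPM in WT and 146 to 165 in Hyp, with a difference of 0.18 ± 0.07 (adjusted p = 0.270). These ranges did not overlap, and the share of all genes with Hyp above WT in this way was not counted. Gc, the plasma actin scavenger, gave 0.19 ± 0.19 (adjusted p = 0.686), and Tmsb10 and Cfl2 gave 0.25 ± 0.18 and 0.00 ± 0.06 (adjusted p = 0.566 and 0.995). Without WT_5, cFGF23-Hyp_3 and cFGF23-Hyp_5, Cap1 and Tmsb10 passed as higher and Cycs and Aifm1 as lower in Hyp against WT, in a fit that called 9.43% of all genes.

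Tested genes beside Dnase1 on chromosome 16 had estimates of -0.22 to 0.41 in Hyp against WT and -0.67 to 0.20 in cFGF23-Hyp against Hyp. Of 16 genes within 250 kb, 11 were tested and none passed in any comparison by edgeR, DESeq2 or limma-voom. By edgeR, 0.342%, 0.0% and 0.0% of all tested genes passed, so this count is no result about the neighbours. An unadjusted p below 0.05 was found for 1, 1 and 0 of them (13.4%, 10.4% and 5.73% of all tested genes). Trap1, a mitochondrial chaperone that overlaps the end of Dnase1, was at 305 to 328 CPM in WT, 323 to 345 in Hyp and 295 to 352 in cFGF23-Hyp. The groups overlapped, and its difference in Hyp against WT was 0.04 ± 0.06 (adjusted p = 0.805). Gm15879, which overlaps the start of Dnase1, was at 4.81 to 5.80 CPM in WT, 4.70 to 6.27 in Hyp and 4.01 to 8.26 in cFGF23-Hyp (0.00 ± 0.16 in Hyp against WT, adjusted p = 0.995).

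Further out, Slx4, a scaffold of DNA repair nucleases, Cluap1, a ciliary transport protein, and Crebbp, a histone acetyltransferase, gave 0.05 ± 0.13, -0.14 ± 0.18 and 0.01 ± 0.09 in Hyp against WT (adjusted p = 0.893, 0.763 and 0.958). Nlrc3, a negative regulator of innate signalling, gave 0.41 ± 0.25 (adjusted p = 0.499). In cFGF23-Hyp against Hyp it gave -0.67 ± 0.26 (adjusted p = 0.390), opposite in sign to Dnase1. Naa60 passed as lower in Hyp against WT in the fit without the 3 libraries, which called 9.43% of all genes.

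**Figure D3:**
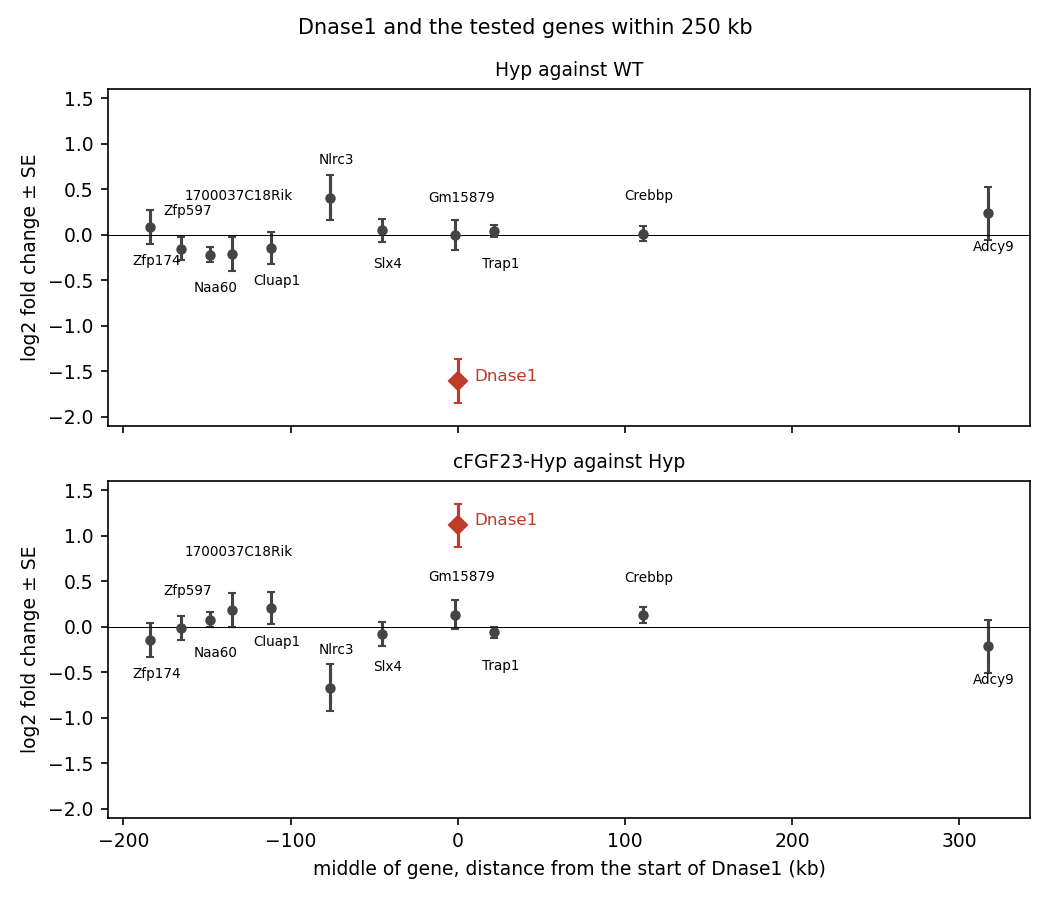
Log2 fold change ± SE of Dnase1 (red diamond) and of the 11 tested genes within 250 kb (black), against the distance of each gene's middle from the start of Dnase1 in kb, for Hyp against WT (top) and cFGF23-Hyp against Hyp (bottom). The neighbours lie between -0.22 and 0.41 at the top and between -0.67 and 0.20 at the bottom, where Dnase1 lies at -1.61 and 1.11; Adcy9 is drawn farther out because its nearer end, not its middle, is within 250 kb.

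The likeness of other genes to Dnase1 was measured as Pearson's r of log2 CPM over the 15 libraries, among 11972 protein-coding genes whose log2 CPM averaged 1 or more. The median r was 0.00, with quartiles at -0.36 and 0.38. An r of at least 0.9 was found for 17 genes (0.142%) and of at most -0.9 for 12 (0.1002%). The libraries fall into groups and share depth and dissection, so r is a description. It is given beside r of the deviations from the group means, which removes the differences between groups.

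The 10 most similar genes had r of 0.91 to 0.94. Ftcd, an enzyme of histidine and folate metabolism, came first (r = 0.94). It was at 52.5, 62.5, 55.5, 59.4 and 37.1 CPM in WT_1 to WT_5 and at 19.4, 15.7, 19.0, 21.9 and 22.1 CPM in Hyp_1 to Hyp_5. In cFGF23-Hyp_1 to cFGF23-Hyp_5 it was at 29.5, 27.7, 34.5, 22.1 and 58.0 CPM. Like Dnase1, Ftcd was lowest in Hyp, though by a gap of only 0.0038 (log2 CPM), and lowest among WT in WT_5. In the treated group its level reached the WT range in cFGF23-Hyp_5 alone. Its estimates were -1.44 ± 0.21 in Hyp against WT and 0.81 ± 0.21 in cFGF23-Hyp against Hyp, given without a test because the gene was chosen for this pattern.

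Acsm1, a mitochondrial medium-chain acyl-CoA synthetase, was nearly as close (r = 0.94). It was at 546 to 680 CPM in WT, 454 to 490 in Hyp and 491 to 636 in cFGF23-Hyp. Its Hyp values lay below all others, but by a gap of only 0.0028 (log2 CPM), against 0.30 for Dnase1. Its estimate in Hyp against WT was smaller, at -0.39 ± 0.09. Tfam, which packages and transcribes mitochondrial DNA, spanned 56.7 to 60.7 CPM in WT, 46.6 to 49.2 in Hyp and 46.6 to 65.7 in cFGF23-Hyp (r = 0.94). Its highest library was cFGF23-Hyp_3. Defb29, a beta-defensin, spanned 35.6 to 65.2 CPM in WT, 19.8 to 24.7 in Hyp and 18.7 to 58.1 in cFGF23-Hyp (r = 0.94). The other 6 were Susd2, a sushi-domain membrane protein, Mtfr1, a regulator of mitochondrial shape, Tspan3, a tetraspanin, Aqp11, an intracellular aquaporin whose loss gives cystic kidneys in mice, Fat2, an atypical cadherin, and Eci3, an enoyl-CoA isomerase of fatty acid oxidation. In Hyp against WT, the estimates of Fat2 (-1.45 ± 0.25) and Ftcd were closest to that of Dnase1 among the 10, followed by Defb29 (-1.15 ± 0.24) and Susd2 (-0.98 ± 0.13).

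**Figure D4:**
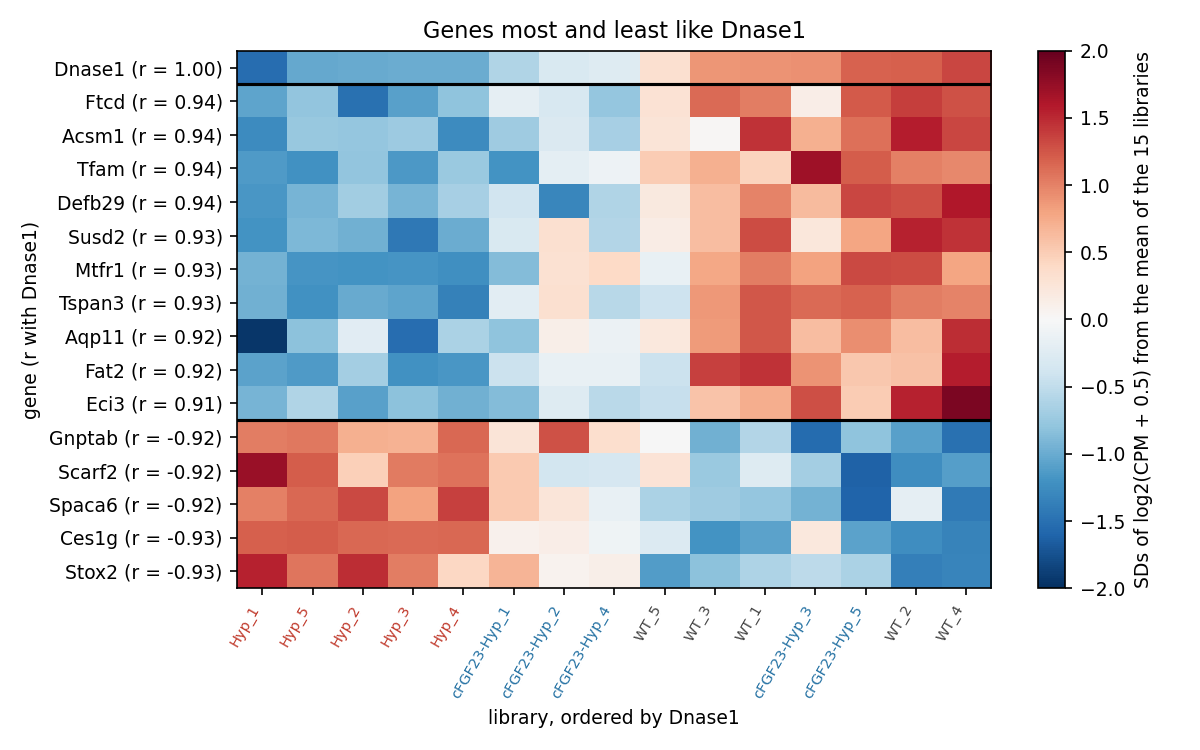
Levels of Dnase1, the 10 genes with the highest and the 5 with the lowest r to it (rows) in 15 libraries ordered by Dnase1 (columns, labels coloured by group), as SDs of log2(CPM + 0.5) from each gene's mean. The 5 Hyp libraries stand at the left with low values in the upper rows and high values in the lower 5, and cFGF23-Hyp_3 and cFGF23-Hyp_5 stand among the WT libraries at the right.

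The 5 genes with the lowest r were Stox2, a storkhead-box factor (-0.93), Ces1g (-0.93), Spaca6, a sperm protein of gamete fusion (-0.92), Scarf2, a scavenger receptor family member (-0.92), and Gnptab, an enzyme of the lysosomal mannose 6-phosphate tag (-0.92). Ces1g was at 114 to 132 CPM in Hyp, 2.01 to 22.9 in cFGF23-Hyp and 1.07 to 9.59 in WT, where the 9.59 CPM was in WT_5. Its range across groups was far wider than that of Stox2, which was at 7.40 to 9.20 CPM in Hyp and 5.20 to 6.04 in WT. For Ces1g, r of the deviations from the group means was -0.66 over all libraries and 0.12 without WT_5 and cFGF23-Hyp_5, while for Stox2 it was -0.72 and -0.76.

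Which genes follow Dnase1 within groups was a different question. By r of the deviations from the group means, the closest were Aasdhppt, which adds the phosphopantetheine arm to carrier proteins (0.94), Ttc19, an assembly factor of respiratory complex III (0.92), Hspd1, the mitochondrial chaperonin (0.91), Defb29 (0.90) and Cmbl, a hydrolase (0.89). Only Defb29 was also among the 10 by r over libraries. Hspd1 was high on both measures (0.91 and 0.91) and was at 757 to 1109 CPM in WT, 687 to 766 in Hyp and 663 to 1037 in cFGF23-Hyp. Aasdhppt was high mainly within groups, with r of 0.67 over the libraries, and was at 40.9 and 40.7 CPM in cFGF23-Hyp_3 and cFGF23-Hyp_5, above every other library (27.7 to 34.7 CPM). Ttc19, Hspd1, Defb29 and Cmbl were also highest of the treated group in cFGF23-Hyp_3 and cFGF23-Hyp_5. Hspd1, for example, was there at 1037 and 1007 CPM, against 663 to 757 CPM in the rest of that group. Ftcd, by contrast, had 0.77 within groups and 0.46 without WT_5 and cFGF23-Hyp_5, whereas Tfam had 0.87 and 0.91. No r of deviations was taken without cFGF23-Hyp_3.

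**Figure D5:**
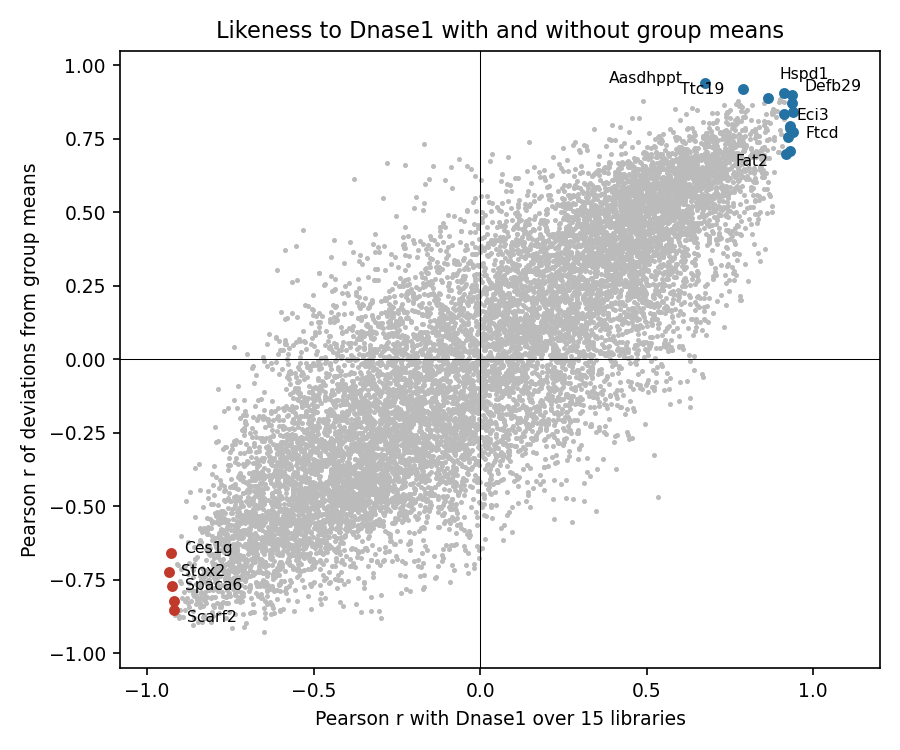
Each of 11972 genes (grey) by Pearson's r with Dnase1 over 15 libraries (horizontal) and r of deviations from the group means (vertical), with the named similar genes in blue and the 5 least similar in red, some of them labelled. The blue points lie at 0.67 to 0.94 horizontally and 0.70 to 0.94 vertically, and the red points at -0.93 to -0.92 and -0.85 to -0.66.

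The composition of the list of similar genes depended on the libraries. Of the 10, 6 stayed among the 10 closest without WT_5 and cFGF23-Hyp_5 or without cFGF23-Hyp_3, and 3 over only the WT and cFGF23-Hyp libraries. Without WT_4 and WT_2, the libraries farthest from the median of Dnase1, 6 stayed, and r of the 10 was 0.90 to 0.93. By Spearman's rho, 3 of the 10 were among the 10 closest, and rho of the 10 was 0.84 to 0.94.

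Cell type markers moved with Dnase1 in part, and in whole tissue fewer cells of a type cannot be told apart from less RNA per cell. Proximal tubule markers summed to 37662 to 51119 CPM in WT, 29445 to 36686 in Hyp and 31800 to 53018 in cFGF23-Hyp, with WT and Hyp not overlapping. A single gene, Kap, the androgen-regulated kidney protein, made up 51.8% to 70.7% of each sum. The mean log2 level of that list had r of 0.60 with Dnase1 (0.54 without WT_5, cFGF23-Hyp_3 and cFGF23-Hyp_5). Slc34a1, the phosphate cotransporter of the proximal tubule, was at 4508 to 4969 CPM in WT and 3284 to 3834 in Hyp, while Lrp2, the megalin receptor of the same cells, was at 1969 to 2318 and 2005 to 2397 CPM. Summed markers of the S1 segment overlapped (828 to 1387 CPM in WT, 1122 to 1437 in Hyp), as did those of S3 (1501 to 1930 and 1375 to 1612 CPM).

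Markers of endothelium (4 of 4 matched) ran opposite to Dnase1, at 114 to 170 CPM in WT, 148 to 195 in Hyp and 104 to 156 in cFGF23-Hyp (r = -0.73, and -0.72 without the 3 libraries). Podocyte markers (4 of 4) were at 177 to 223 CPM in WT, 232 to 323 in Hyp and 174 to 232 in cFGF23-Hyp, so that WT and Hyp did not overlap (r = -0.57, and -0.58 without the 3 libraries). Macrophage markers (4 of 4) had r of -0.64 (-0.73 without WT_5, cFGF23-Hyp_3 and cFGF23-Hyp_5). Markers of the distal convoluted tubule (4 of 4) had r of 0.64 (0.74 without the 3 libraries), yet their sums overlapped (1003 to 1232 CPM in WT, 1061 to 1371 in Hyp) and the members differed. Slc12a3, the sodium chloride cotransporter, was at 630 to 774 CPM in WT and 759 to 1034 in Hyp, and Calb1, a calcium-binding protein, at 273 to 442 and 196 to 282 CPM. The hepatocyte list had r of -0.84 (-0.86 without the 3 libraries), from its 3 tested members. All 4 members summed to 48.9 to 468 CPM in WT, 937 to 1866 in Hyp and 60.1 to 1270 in cFGF23-Hyp, almost all of it Ttr, transthyretin. Alb, the defining liver gene, was at 3.13 to 39.0 CPM and Apoa1 at 0 to 5.89 CPM over the 15 libraries. Ttr had its highest WT value in WT_5 (463 CPM) and its lowest treated value in cFGF23-Hyp_5 (55.5 CPM). Of the pancreas markers, 3 of 7 were matched, with Cela1 at 28.6 to 117 CPM and Cpa1 at no more than 0.0773 CPM. Adrenal markers summed to 1118 CPM in Hyp_4 and to at most 10.6 CPM in the other libraries, and Dnase1 in Hyp_4 (619 CPM) was close to that in Hyp_2, Hyp_3 and Hyp_5 (611 to 617 CPM). The part of these differences in the level of Dnase1 was not tested.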

How the data were processed

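RNA from whole mouse kidney was sequenced in 15 libraries made with the NEBNext Ultra kit, per the labels' protocols, and the submitters' processing notes name mm10. Aligner, counter and strand setting: not given in the sources used here. Deposited coordinates differ from those of GRCm38, so the builds were not combined. The authors deposited 2 tables with raw counts per gene, a normalized signal (counts times 1 constant per library) and log2 fold changes with p-values of the authors' own test, of which the p-values were not used. The 20 deposited FPKM columns were not used. The tables were joined on gene ID (27122 shared). Entries without a name (299, 0.219% to 0.363% of the counts) were left out.

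Counts were fitted with edgeR 4.0.16 (R 4.3.3, quasi-likelihood, TMM, filterByExpr, 1 mean per group, all 15 libraries), with Benjamini-Hochberg adjustment over 15789 genes and calls below 0.05. A standard error is the log2 fold change over the square root of F. CPM is TMM-scaled, and log2 CPM has a prior count of 2. Alternatives included limma-voom (limma 3.58.1) and DESeq2 1.42.0. The scripts were tested on simulated data.

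Dnase1, the gene lists, the rule for named genes and the alternatives were chosen with earlier results of these data known. The rule names the 10 genes with the highest and 5 with the lowest r, the 5 with the highest r of deviations, genes whose symbol starts with Dnase or Endo, neighbours within 100 kb and up to 4 members per list with the smallest p. Naa60, Plscr1, Tatdn1, Samhd1, Unc93b1, Pld3, Fen1, Bmerb1 and marker genes were named after their values were seen. The labels name no batch and do not say how mice map to libraries, so p-values measure the spread between these libraries. The promoter windows are from RefSeq, and 8 of the 10 similar genes have one. Same-numbered libraries of different groups deviated together (r above 0.1) in 4 of 15 pairs, so numbers were not taken as pairs. Reads carry no molecular identifiers, so errors are those between libraries.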

Additional observations from a re-analysis of the deposited data

Results flagged for a closer look

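Of 81 sets of 5 libraries (27 genes in 3 groups), 7 held 1 library far from the other 4 by Dixon's ratio (gap over range above 0.71), and chance gives about 1 in 20. Dnase1 was at 464 CPM in Hyp_1, below 611 to 619 CPM in the other Hyp libraries. Mtfr1 was at 137 CPM in Hyp_1, above 132 to 133 CPM in the other Hyp libraries. Among the Hyp libraries alone, the one with the least Dnase1 thus held the most of this similar gene. All WT libraries (153 to 185 CPM) and all cFGF23-Hyp libraries (139 to 185 CPM) held more Mtfr1. Fat2 was at 2.43 CPM in Hyp_2, above 1.84 to 1.98 CPM. In WT_5, Tspan3 was at 228 CPM, below 303 to 329 CPM in the other WT libraries, and Ces1g was at 9.59 CPM, above 1.07 to 2.01 CPM. Dnase2a was at 20.0 CPM in cFGF23-Hyp_3, above 9.50 to 11.9 CPM in its group. Endod1 was at 14.8 CPM in cFGF23-Hyp_5, below 21.9 to 23.0 CPM.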

How the results depend on the processing

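Dnase1 kept its direction in the 3 comparisons under 25 alternatives each, and 2 values moved by more than the spread between libraries, to 0.56 (treated against untreated Hyp) and -1.15 (treated Hyp against WT), both without WT_5, cFGF23-Hyp_3 and cFGF23-Hyp_5. With the replicate number as a block, Dnase1 gave -1.63, 1.07 and -0.57, and the calls over all genes were 15, 0 and 0. The number of calls in Hyp against WT (54) was 356 with DESeq2, 516 with only the 2 groups, 97 with WT_5 placed in Hyp, 228 without WT_5 and cFGF23-Hyp_5, and 1527 without these and cFGF23-Hyp_3. In cFGF23-Hyp against Hyp (0) it was 116 with DESeq2, 2 with limma-voom, 67 without the pair of libraries and 63 without the 3. In cFGF23-Hyp against WT (0) it was 6 with DESeq2, 1 with WT_5 placed in Hyp, 177 and 583. Leaving out 1 library gave 7 to 345, 0 to 25 and 0 to 3 calls, the highest without cFGF23-Hyp_3, cFGF23-Hyp_5 and WT_5, in that order. In Hyp against WT the count was 160 without WT_5, 109 without cFGF23-Hyp_5, 96 without cFGF23-Hyp_4, and 7 to 15 when the library left out was a Hyp library or another WT library.

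Of the 10 most similar genes, 3 were shared under Spearman's rho, 1 under deviations from group means, 6 without WT_5 and cFGF23-Hyp_5, 6 without cFGF23-Hyp_3, 3 over only WT and cFGF23-Hyp, 6 without the 2 libraries farthest from the median, and 6 to 9 with 1 library left out. Of 3150 values of other named genes, 27 passed the threshold only under an alternative and 30 untested values moved. No tested gene among them passed with all libraries, so no call could be lost. Turns of sign where either value lay within 1 standard error of 0 (71) were counted as no change, such as Zbp1 in Hyp against WT (-0.75 to 1.47). The causes were not tested. Depth limits the genes near 1 CPM, such as Aim2 and Zbp1, more than Dnase1.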
